A study of Homo sapiens with 6 samples.

Results

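SR proteins and heterogeneous nuclear ribonucleoproteins (hnRNPs) are the main families of RNA-binding proteins that set which splice sites a cell uses. The genes described here are 33 rows of the deposited table, taken by gene name out of 58735. The list was chosen with earlier results of these data known. Of these, 14 encode SR proteins and their relatives TRA2A and TRA2B, and 19 encode hnRNPs. The libraries came from A375, an established human malignant melanoma cell line, and RNA was enriched for poly-A. In the PAL group, 3 libraries came from cells treated with Ringer's lactate solution that had been activated by low-temperature plasma, and in the control group 3 libraries came from cells without it. The sources used here do not give the dose, the time or the meaning of the 64 in the names of the PAL columns. They also do not say that the libraries of a group came from separate cultures, so the p-values reflect library spread that could be technical.

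Values are FPKM, that is, reads per kilobase of gene length and scaled to a common library size, and means are given ± SD over 3 libraries. The libraries held 15064971 to 17711389 assigned reads. The melanoma label was checked against 12 melanocyte lineage markers: SOX10, a lineage transcription factor, stood at 88.1 ± 1.68 FPKM (control) and 108 ± 0.944 FPKM (PAL), while TYR, the key pigment enzyme, was listed at 0 in all 6 libraries and PMEL and MLANA stayed below 1 FPKM on average. MITF, another lineage transcription factor, stood at 2.36 ± 0.0401 FPKM (control) and 2.25 ± 0.129 FPKM (PAL). The summed level of the 12 was 105 to 108 FPKM in control and 123 to 124 in PAL, mostly SOX10. Of the 12, 6 were tested, and SOX10 was higher in PAL, also under 17 of 17 alternatives. S100B was lower, at 5.18 ± 0.573 FPKM (control) and 4.03 ± 0.180 FPKM (PAL) (limma adjusted p = 0.0300), a call lost under 10 of 16 alternatives (range 0.0113 to 0.10). Markers of other cells were low. Of 7 immune and endothelial markers, 0 reached a mean of 1 FPKM in either group. The 6 fibroblast markers summed to 5.0 to 5.39 FPKM in control and 3.94 to 5.27 in PAL, mostly LUM. The 6 keratinocyte markers summed to 31.5 to 36.4 and 30.8 to 33.4 FPKM, mostly KRT10, with KRT1 and DSG3 listed at 0 in all 6 libraries. KRT14 was lower in PAL, at 3.80 ± 0.424 FPKM (control) and 2.87 ± 0.321 FPKM (PAL) (limma adjusted p = 0.0422), a call lost under 8 of 16 alternatives (range 0.0336 to 0.122). The part of these markers in the members' differences was not tested.

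As background, an SR protein binds exons through RNA recognition motifs and recruits the spliceosome through a tail of alternating arginine and serine residues, the RS domain. That tail is phosphorylated by SRPK kinases in the cytoplasm and CLK kinases in the nucleus, and the phosphorylated protein is carried into the nucleus by TNPO3. The hnRNPs coat nascent transcripts and often oppose SR proteins by silencing nearby splice sites, and many of them hold glycine-rich stretches with arginine. Several members of both families control their own level by splicing in an exon that sends the transcript to nonsense-mediated decay.

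The families differ in their coding sequences. In the longest complete coding sequence per gene in GENCODE release 29, neighbouring codons for arginine and serine, in either order, occurred 4.07 (SRSF9) to 23.5 (SRSF2) times per 100 codons in the 14 SR genes and 0.240 (HNRNPF) to 2.55 (HNRNPA2B1) times in the 19 hnRNP genes, so the families did not overlap. The stretches of 30 codons with the most such pairs are shown for SRSF6, which had the lowest PAL to control ratio of the tested members, for SRSF7 and TRA2B, which were also lower, and for SRSF9 and SRSF4, which were not. Capitals mark codons that belong to an arginine-serine pair, positions are hg38 from the first to the last base with any intron between them, and sequences run 5′ to 3′ on the coding strand.
SRSF6, chr20:43460216-43460578, plus strand: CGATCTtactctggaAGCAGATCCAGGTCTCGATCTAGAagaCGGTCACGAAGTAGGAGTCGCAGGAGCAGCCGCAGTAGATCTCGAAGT
SRSF7, chr2:38748151-38749536, minus strand: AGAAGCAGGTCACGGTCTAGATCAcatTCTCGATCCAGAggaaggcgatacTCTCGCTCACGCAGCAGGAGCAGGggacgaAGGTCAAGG
TRA2B, chr3:185925542-185926605, minus strand: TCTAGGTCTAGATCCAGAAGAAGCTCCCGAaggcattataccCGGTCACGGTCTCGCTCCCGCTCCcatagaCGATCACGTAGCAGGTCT
SRSF4, chr1:29150147-29154739, minus strand: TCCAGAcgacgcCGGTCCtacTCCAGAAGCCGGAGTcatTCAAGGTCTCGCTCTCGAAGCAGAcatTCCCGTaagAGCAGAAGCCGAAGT
SRSF9, chr12:120462085-120463961, minus strand: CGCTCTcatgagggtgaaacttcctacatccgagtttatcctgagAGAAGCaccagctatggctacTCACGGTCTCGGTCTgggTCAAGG
SRSF6 holds 21 pairs in this stretch, SRSF7 and TRA2B hold 19 each, SRSF4 holds 18 and SRSF9 holds 7. Of the tested SR members not shown, those that passed as lower hold 23 (SRSF2), 23 (SRSF5), 14 (TRA2A) and 12 (SRSF3). Those that did not pass hold 21 (SRSF1), 15 (SRSF8), 15 (SRSF11) and 12 (SRSF10). HNRNPU, the hnRNP with the lowest ratio, has 3 arginine-serine pairs in 825 codons. Its densest stretch of arginine-glycine pairs, in capitals here, holds 8 of them and lies near the end of the coding sequence.
HNRNPU, chr1:244855027-244855495, minus strand: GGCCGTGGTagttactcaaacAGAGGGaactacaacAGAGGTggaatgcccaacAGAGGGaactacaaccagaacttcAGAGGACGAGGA

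All members but SRSF12 were well expressed. HNRNPA1, a splicing silencer, had the highest level, 493 ± 9.15 FPKM in control, rank 55 of 12258 tested genes, and it made up 22.7% of the summed FPKM of its family over the 6 libraries. It was followed by HNRNPAB at 271, HNRNPA2B1 at 233 and HNRNPK at 226 FPKM in control. Among SR genes the highest was SRSF2, a protein of nuclear speckles, at 133 ± 2.12 FPKM, before SRSF3 at 92.8 and SRSF6 at 84.2. The lowest tested members were HNRNPLL at 9.83, HNRNPUL2 at 13.1 and SRSF8 at 14.1 FPKM in control. SRSF12 had 0, 1 and 0 reads in control replicates 1, 2 and 3 and 2, 0 and 2 in PAL, so it did not pass the filter on low values and no fold is given. The length behind each FPKM is the union of all annotated exons, which lowers the level of genes with long alternative exons. For HNRNPU this union is 22512 bases, and for SRSF4 and SRSF9 it is 8893 and 3744 bases, against 2387 and 1201 in the principal transcript.

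**Figure D1:**
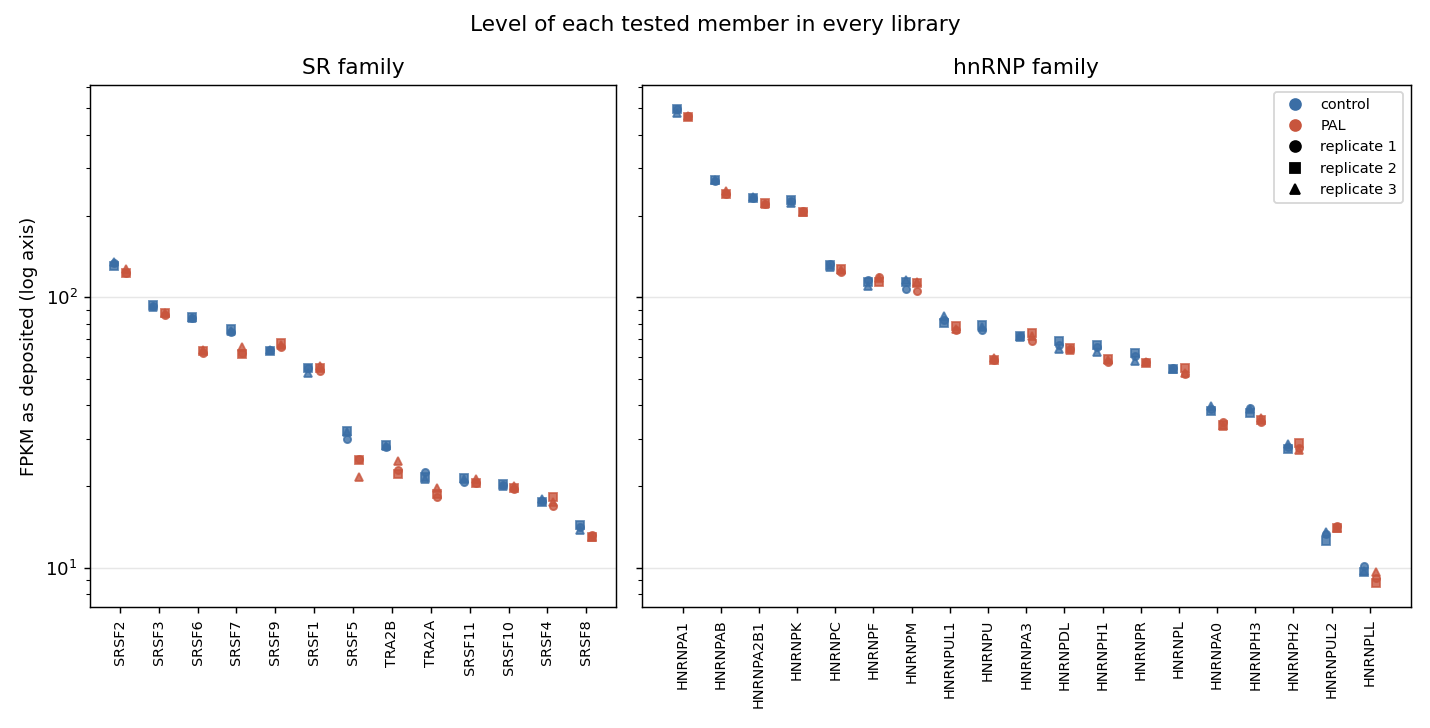
FPKM of the 32 tested members on a log axis, 1 point per library, control in blue and PAL in red, with marker shapes for replicates 1 to 3 and genes ordered by control mean within each family. HNRNPA1 stands near 493 FPKM in control and HNRNPLL near 9.83, and the gap between red and blue is widest for SRSF6, SRSF5 and HNRNPU.

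The members were compared between PAL-treated and control cells. Those that passed the test under the deposited scaling were all lower in PAL, by 5.06% to 25.1% of the control mean. Of 13 tested SR members 7 were lower and 0 higher, and of 19 hnRNP members 9 were lower and 0 higher, at an adjusted p below 0.05 in limma. The background is 14.5% of all 12258 tested genes lower and 11.4% higher (25.9% called in either direction), against 7 of 13 and 9 of 19 members lower. At an unadjusted p below 0.05, 8 SR and 10 hnRNP members were lower and 1 of each (SRSF9 and HNRNPUL2) higher, where 20.7% of all genes were lower and 18.8% higher. The voom method, limma's weighted model, on recovered reads called 0 of either family higher, 7 SR and 9 hnRNP members lower, where 18.1% of all genes were lower and 13.7% higher. It used the library sizes behind the deposited FPKM, so it does not check the scaling. The median log2 fold change was -0.10 over the SR family and -0.075 over the hnRNP family, against 0.0043 over all genes tested. In these bulk libraries, fewer cells of a kind and less RNA per cell cannot be told apart. The lower groups did not overlap with control in 8 SR and 11 hnRNP members, where 23.6% of all tested genes were lower without overlap. SRSF9 and HNRNPUL2 were higher without overlap, where 21.4% of all tested genes were (44.9% in either direction). The SR count was 4 without PAL replicate 2, and the hnRNP count fell to 4 on leaving out PAL replicate 1 and to 5 on leaving out PAL replicate 2 or control replicate 1. The share of all genes lower was 9.88%, 9.52% and 11.3% when PAL replicate 1, PAL replicate 2 or control replicate 1 was left out.

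These counts rest on the library scaling. The library size behind the deposited FPKM was 0.980 to 0.984 of the assigned reads in control and 1.04 to 1.05 of them in PAL. Rescaled by plain read totals, the median of all genes was 0.075 rather than 0.0043 on the log2 scale, and 4 SR and 3 hnRNP members were lower and 2 of each family higher, where 9.22% of all genes were lower and 25.3% higher. Under that scaling the median of the SR family was -0.016 and that of the hnRNP family turned to 0.011. Members called lower under the deposited scaling and under all 17 alternatives were SRSF5, SRSF6, SRSF7, TRA2B, HNRNPA0 and HNRNPU, and 9.55% of the 6857 genes tested under every alternative were lower in this way.

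**Figure D2:**
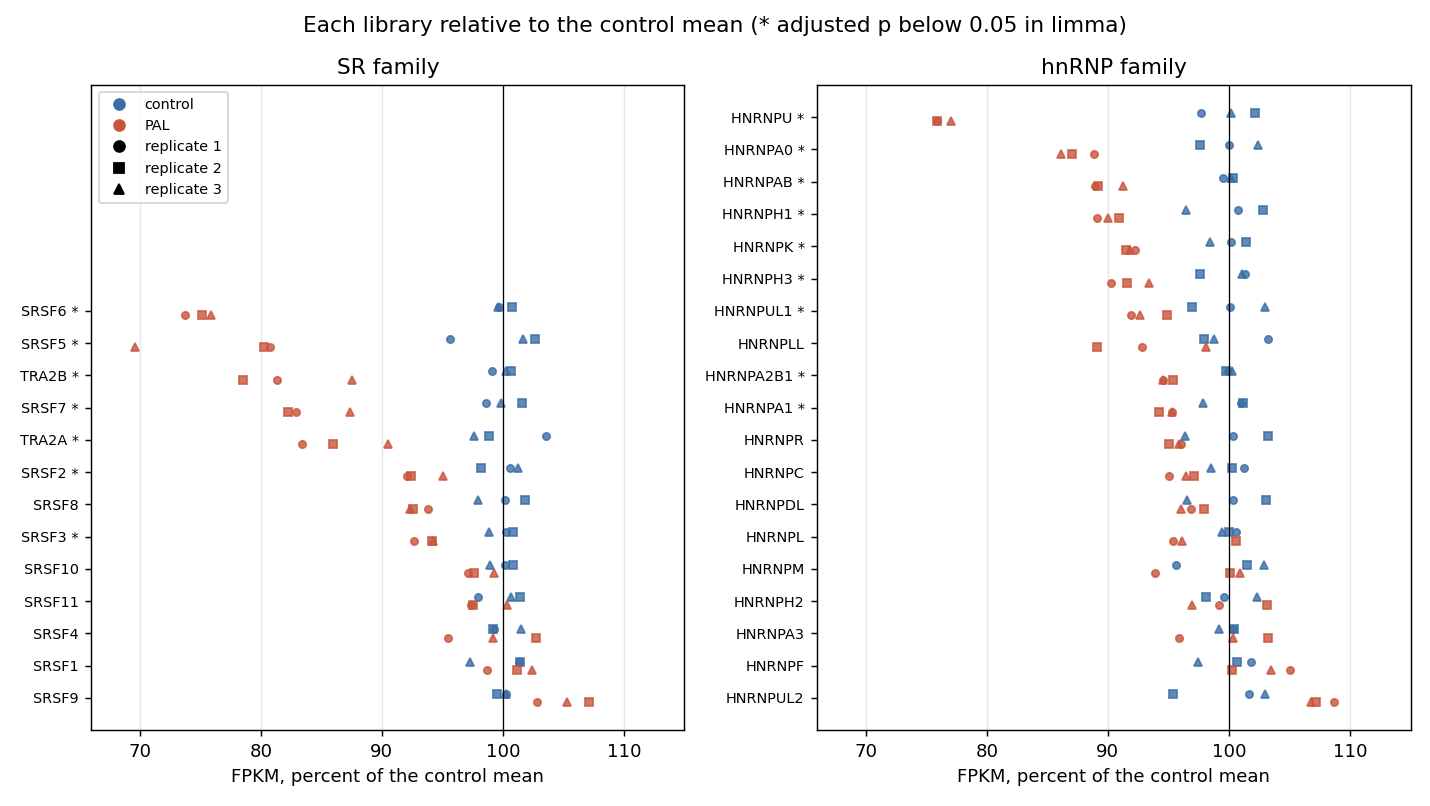
FPKM of each library as a percent of the control mean, per tested member, with control in blue, PAL in red, marker shapes for replicates 1 to 3, and an asterisk for an adjusted p below 0.05 in limma. All 3 PAL libraries lie to the left of all 3 control libraries for 8 SR and 11 hnRNP genes, of which SRSF6, SRSF5 and HNRNPU lie farthest left, and to the right for SRSF9 and HNRNPUL2.

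SRSF6 and SRSF5, a pair of related SR proteins, had the strongest falls of the SR family. SRSF6 (chromosome 20, 43457928 to 43464247) stood at 83.9, 84.8 and 83.8 FPKM across control libraries 1 to 3 and 62.1, 63.2 and 63.8 across PAL libraries 1 to 3. Its PAL libraries lay close together and far below the control libraries. It fell by 0.41 ± 0.023 (SE) on the log2(FPKM + 1) scale, or 25.1% of the control mean (limma adjusted p = 6.17e-05, range 5.44e-09 to 0.00181 over 17 alternatives). SRSF5 (chromosome 14, 69726900 to 69772005) stood at 29.8, 32.0 and 31.7 FPKM across control libraries 1 to 3 and 25.2, 25.0 and 21.7 across PAL libraries 1 to 3. The groups did not overlap, and PAL replicate 3 was the lowest library. SRSF5 fell by 0.37 ± 0.061 (SE), or 23.1% (limma adjusted p = 0.00640, range 2.77e-05 to 0.0270).

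TRA2B and TRA2A, homologues of the fly splicing factor transformer-2 that bind GAA-rich exonic enhancers, were both lower. TRA2B (chromosome 3, 185915906 to 185938136) stood at 28.0, 28.4 and 28.3 FPKM across control libraries 1 to 3 and 23.0, 22.2 and 24.7 across PAL libraries 1 to 3. PAL replicate 3 was the PAL library nearest to control, still below all 3 of them. It fell by 0.27 ± 0.042 (SE), or 17.6% (limma adjusted p = 0.00512, range 1.85e-05 to 0.0237). TRA2A (chromosome 7, 23504780 to 23532041) stood at 22.6, 21.6 and 21.3 FPKM across control libraries 1 to 3 and 18.2, 18.8 and 19.8 across PAL libraries 1 to 3, again without overlap. It fell by 0.20 ± 0.040 (SE), or 13.4% (limma adjusted p = 0.0136). Its call was lost as TPM, by plain read totals, with the replicate block and without PAL replicate 2, over a range of 0.00360 to 0.0602.

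SRSF7 and SRSF3, a pair of SR proteins that also act as adaptors for export of mRNA from the nucleus, were both lower. SRSF7 (chromosome 2, 38743599 to 38751494) stood at 74.1, 76.4 and 75.1 FPKM across control libraries 1 to 3 and 62.4, 61.9 and 65.7 across PAL libraries 1 to 3. The PAL libraries were all below the control libraries. It fell by 0.24 ± 0.031 (SE), or 15.8% (limma adjusted p = 0.00218, range 1.68e-05 to 0.0131). SRSF3 (chromosome 6, 36594353 to 36605600) stood at 93.1, 93.6 and 91.8 FPKM across control libraries 1 to 3 and 86.1, 87.4 and 87.5 across PAL libraries 1 to 3. It fell by 0.093 ± 0.022 (SE), or 6.29% (limma adjusted p = 0.0232), but its change was -0.0082 by plain read totals, where the adjusted p was 0.797. SRSF2 (chromosome 17, 76734115 to 76737374) went from 133 ± 2.12 to 124 ± 2.19 FPKM, a fall of 0.10 (limma adjusted p = 0.0252), which was -0.016 by plain read totals and turned to 0.0061 after quantile normalization. The calls of SRSF2 and SRSF3 were each lost under 11 of 17 alternatives, over adjusted p ranges of 0.00917 to 0.893 and 0.00548 to 0.797.

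The other tested SR members were not called. SRSF1, the founding member of the family, stood at 54.9, 54.9 and 52.7 FPKM across control libraries 1 to 3 and 53.5, 54.8 and 55.5 across PAL libraries 1 to 3. Its groups overlapped, and the log2 fold change was 0.011 (limma adjusted p = 0.808). By plain read totals that difference was 0.095 and passed as higher (adjusted p = 0.0397). SRSF9, a relative of SRSF1 with a short RS tail, stood at 63.6, 63.2 and 63.6 FPKM across control libraries 1 to 3 and 65.3, 68.0 and 66.8 across PAL libraries 1 to 3. Here every PAL library lay above every control library, a difference of 0.070 (limma adjusted p = 0.0792) that passed as higher as TPM, after quantile normalization and by plain read totals (0.15, adjusted p = 0.00396). SRSF8 stood at 14.1 ± 0.274 FPKM (control) and 13.1 ± 0.111 FPKM (PAL), with all PAL libraries below control and a limma adjusted p of 0.0577. SRSF4, SRSF10 and SRSF11 had overlapping groups and differences of -0.013, -0.027 and -0.022, each of which turned positive by plain read totals (0.068, 0.054 and 0.060). The median of all genes was 0.075 under that scaling. SRSF10 is known as a repressor of splicing once its protein is dephosphorylated, a state that transcript levels do not measure.

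Among hnRNPs, HNRNPU and HNRNPA0 had the strongest falls. HNRNPU, also known as scaffold attachment factor A, binds RNA and chromatin (chromosome 1, 244840638 to 244864560). It stood at 75.4, 78.9 and 77.4 FPKM across control libraries 1 to 3 and 58.6, 58.6 and 59.5 across PAL libraries 1 to 3. The PAL libraries were nearly equal and far below control. It fell by 0.38 ± 0.026 (SE), or 23.7% (limma adjusted p = 1.31e-04, range 4.37e-10 to 0.00327 over 17 alternatives), on 22029 to 26979 reads per library. HNRNPA0, a gene with a single exon whose product binds AU-rich elements (chromosome 5, 137745651 to 137754376), stood at 38.8, 37.8 and 39.7 FPKM across control libraries 1 to 3 and 34.5, 33.8 and 33.4 across PAL libraries 1 to 3. It fell by 0.19 ± 0.029 (SE), or 12.6% (limma adjusted p = 0.00492, range 9.17e-05 to 0.0323). Of the relatives of HNRNPU, HNRNPUL1 fell by 0.10 (limma adjusted p = 0.0463, lost under 12 of 17 alternatives, range 0.00939 to 0.830), and HNRNPUL2 stood at 13.1 ± 0.530 FPKM (control) and 14.1 ± 0.132 FPKM (PAL). HNRNPUL2 lay above control in all 3 PAL libraries, by 0.10 (limma adjusted p = 0.0990), and passed as higher by plain read totals (0.18, adjusted p = 0.0122).

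The A and B hnRNPs, classic silencers that package nascent RNA, include the most abundant members. HNRNPAB (chromosome 5, 178204507 to 178211163) stood at 270.0, 272 and 272 FPKM across control libraries 1 to 3 and 241, 242 and 248 across PAL libraries 1 to 3. It fell by 0.15 ± 0.021 (SE), or 10.2% (limma adjusted p = 0.00297), a call lost after quantile normalization alone among 17 alternatives (range 1.24e-04 to 0.206). HNRNPA1 (chromosome 12, 54280193 to 54287088) stood at 498, 499 and 482 FPKM across control libraries 1 to 3 and 469.6, 464 and 469.9 across PAL libraries 1 to 3. It fell by 0.075, or 5.06% (limma adjusted p = 0.0470), and HNRNPA2B1 fell by 0.076, from 233 ± 0.630 to 221 ± 1.10 FPKM (limma adjusted p = 0.0276), but both turned positive by plain read totals (0.011 and 0.0089). Their calls were lost under 11 and 13 of 17 alternatives, over ranges of 0.00468 to 0.928 and 0.00233 to 0.858. By plain read totals the median of all genes was 0.075, above both. HNRNPA3 stood at 71.7 ± 0.501 FPKM (control) and 71.6 ± 2.65 FPKM (PAL), with overlapping groups (limma adjusted p = 0.955). HNRNPDL, a relative of the A and B group, stood at 66.6 ± 2.18 FPKM (control) and 64.6 ± 0.630 FPKM (PAL) and was not called either (limma adjusted p = 0.318).

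Of the F and H hnRNPs, which bind runs of G, HNRNPH1 and HNRNPH3 were called and HNRNPH2 and HNRNPF were not. HNRNPH1 (chromosome 5, 179614178 to 179634784) stood at 65.3, 66.7 and 62.5 FPKM across control libraries 1 to 3 and 57.8, 59.0 and 58.4 across PAL libraries 1 to 3. It fell by 0.15 ± 0.030 (SE), or 9.98% (limma adjusted p = 0.0132), a call lost as TPM, after quantile normalization, by plain read totals and without PAL replicate 1 (range 4.55e-04 to 0.143). HNRNPH3 fell by 0.12, from 38.4 ± 0.782 to 35.2 ± 0.598 FPKM (limma adjusted p = 0.0217, lost under 9 of 17 alternatives, range 0.00728 to 0.323). HNRNPH2, its relative on the X chromosome, stood at 27.9, 27.5 and 28.6 FPKM across control libraries 1 to 3 and 27.8, 28.9 and 27.1 across PAL libraries 1 to 3, with overlapping groups and a difference of -0.0039. HNRNPF stood at 116, 114 and 111 FPKM across control libraries 1 to 3 and 119, 114 and 117 across PAL libraries 1 to 3, also overlapping, with a difference of 0.041 (limma adjusted p = 0.325) that passed as higher by plain read totals (0.13, adjusted p = 0.0189). Whether HNRNPH1 and HNRNPF differ from each other in their response was not tested.

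Of the remaining hnRNPs only HNRNPK, which binds C-rich RNA and DNA, was called. HNRNPK (chromosome 9, 83968083 to 83980616) stood at 226, 229 and 222 FPKM across control libraries 1 to 3 and 209, 207 and 208 across PAL libraries 1 to 3. It fell by 0.12 ± 0.021 (SE), or 8.13% (limma adjusted p = 0.00771), a call lost under the 3 other scalings (range 2.72e-04 to 0.642). HNRNPC, which binds U tracts, stood at 131 ± 1.84 FPKM (control) and 126 ± 1.38 FPKM (PAL), with no overlap but no call (limma adjusted p = 0.114). HNRNPL and HNRNPLL, which bind CA-rich RNA, had overlapping groups and differences of -0.038 and -0.091. HNRNPM, with overlapping groups, and HNRNPR, with none, had differences of -0.025 and -0.063. Of these 5 genes without a call, all but HNRNPLL turned positive by plain read totals (0.029 for HNRNPC, 0.046 for HNRNPL, 0.060 for HNRNPM and 0.021 for HNRNPR, against -0.013 for HNRNPLL). The median of all genes was 0.075 under that scaling.

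**Figure D3:**
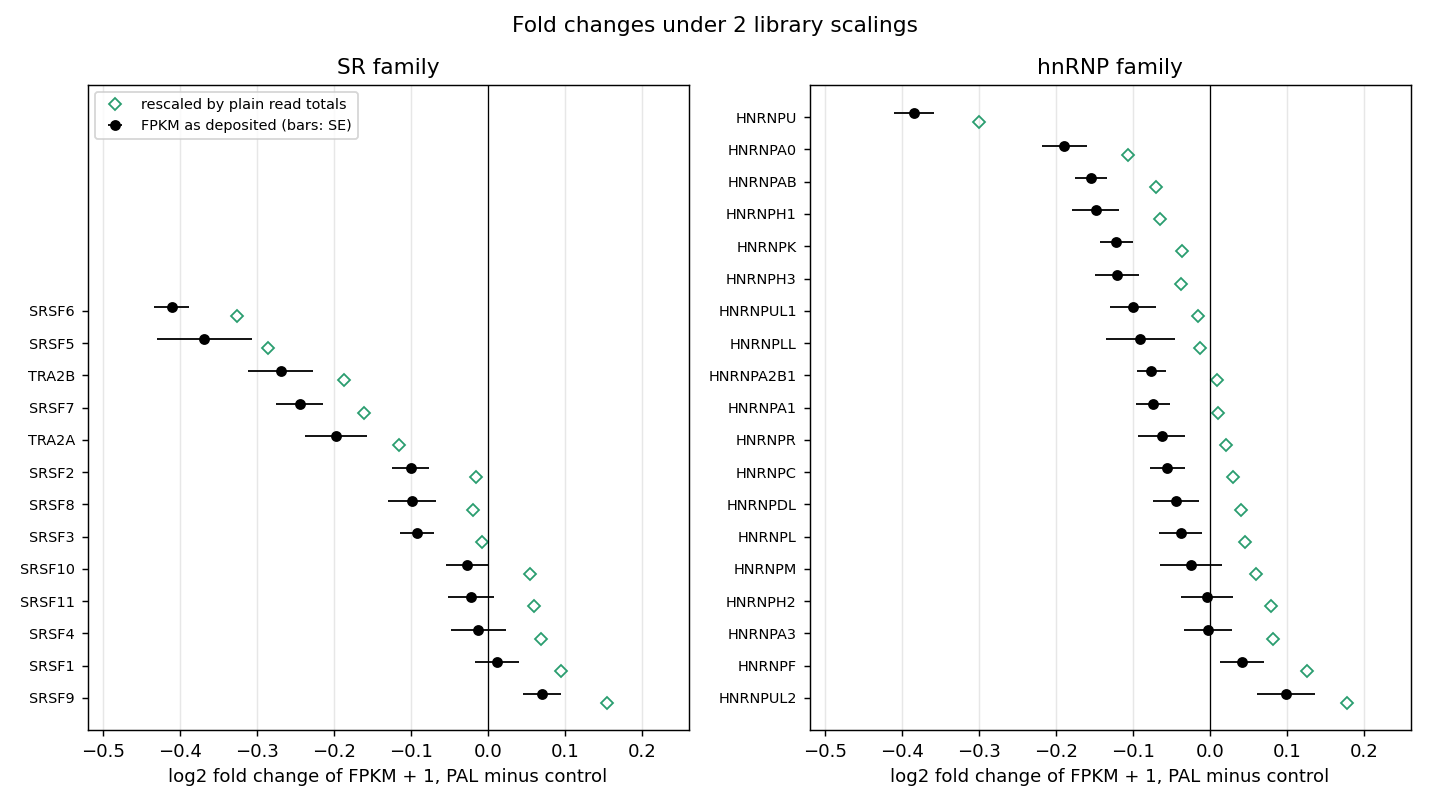
Log2 fold change of FPKM + 1, PAL minus control, per tested member, with the deposited scaling as black points (bars are SE) and the same libraries rescaled by plain read totals as green diamonds. Every diamond lies to the right of its point, and SRSF6, SRSF5, TRA2B, SRSF7, TRA2A, HNRNPU and HNRNPA0 stay at or below -0.106 under both.

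Summed over its members, the SR family stood at 657, 659.6 and 656 in control replicates 1, 2 and 3 and 589, 596 and 604 in PAL replicates 1, 2 and 3 FPKM. The PAL sums lay below all control sums, at 0.907 of control as a ratio of means. The hnRNP family stood at 2190, 2200 and 2169 in control replicates 1, 2 and 3 and 2045, 2057 and 2063 in PAL replicates 1, 2 and 3 FPKM. Its PAL sums were also all lower, at 0.940 of control. By plain read totals these ratios were 0.962 for the SR family and 0.997 for the hnRNP family. The hnRNP sum was 3.32 ± 0.0176 times the SR sum in control and 3.45 ± 0.0296 times it in PAL, a ratio within each library that does not depend on the library size. That ratio was higher in all 3 PAL libraries than in any control library, with no test, since the members were chosen with results known. Without the 4 SR members called under all alternatives, the SR sum in PAL was 0.963 of control, and without HNRNPU and HNRNPA0 the hnRNP sum was 0.948. As shares of assigned reads, SR members took 0.329% ± 0.00179 in control and 0.316% ± 0.00319 in PAL, and hnRNP members 1.34% ± 0.0123 and 1.32% ± 0.000939.

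Heat shock genes moved with the groups over a far wider range. Of these, 7 of 7 tested were lower in PAL, where 14.5% of all genes were. HSPA6, with the largest change of all tested genes, stood at 1882 ± 171 FPKM (control) and 40.4 ± 28.6 FPKM (PAL). HSPA8, with the smallest change of the 7, stood at 1041 ± 66.7 FPKM (control) and 674 ± 79.3 FPKM (PAL). The high levels were thus those of the control libraries, and the reason was not tested. Every fall of a member is a difference from these same control libraries, with no other reference. Whether they show a resting level of the members was not tested. HSPA1A, an inducible HSP70, stood at 1364, 1414 and 1379 FPKM across control libraries 1 to 3 and 48.8, 51.7 and 95.4 across PAL libraries 1 to 3. PAL replicate 3 was nearest to control in HSPA1A. Of the members called lower, it was also nearest for SRSF2, SRSF3, SRSF6, SRSF7, TRA2A, TRA2B, HNRNPA1, HNRNPAB, HNRNPH3 and HNRNPU. It was not the nearest for HNRNPH1, HNRNPK and HNRNPUL1, and it was the farthest for SRSF5, HNRNPA0 and HNRNPA2B1. The share of all genes with this order was not counted. Without both libraries numbered 3, an alternative added after seeing the data, 5 SR and 6 hnRNP members were lower and 0 higher in limma, where 10.9% of all genes were lower and 7.66% higher. The part of the heat shock genes in the members' differences was not tested.

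Promoter windows were available from RefSeq (GRCh38.p14, the same assembly as hg38) for 30 of the 33 members. In the 250 bases before the annotated start, a pair of heat shock units in the form GAANNTTC was found in SRSF8, HNRNPA2B1 and HNRNPC and in the form TTCNNGAA in HNRNPA2B1, against 3.99% and 5.13% of 8571 promoters of tested genes. The CCAAT box, searched as CCAAT on both strands, was in 2 of 12 SR and 13 of 18 hnRNP promoters, against 36.0% of all. The GC box, GGGCGG on both strands, was in 5 of 12 SR and 14 of 18 hnRNP promoters, against 69.1%, and the E-box CACGTG in 0 and 5, against 9.30%. The cAMP response element TGACGTCA was in 0 of either, against 3.13%, and TATAAA in 2 and 2, against 4.85%. The ETS site CCGGAAG was in 2 and 2, against 17.5%. Every motif was searched on both strands, and the pair of heat shock forms can share a unit. A match is a string of letters and not a bound site. The part of the last 150 bases that lies in no annotated exon is shown for the lowest member of each family by ratio, SRSF6 and HNRNPU, beside SRSF3, with a fall lost under most alternatives, and HNRNPF, with no fall. Capitals mark any of these 8 motifs.
SRSF6, chr20:43457746-43457895, plus strand: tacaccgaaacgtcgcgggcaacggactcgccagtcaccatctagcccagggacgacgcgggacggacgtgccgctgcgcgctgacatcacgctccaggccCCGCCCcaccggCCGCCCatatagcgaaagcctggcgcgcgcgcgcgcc
HNRNPU, chr1:244864561-244864693, minus strand: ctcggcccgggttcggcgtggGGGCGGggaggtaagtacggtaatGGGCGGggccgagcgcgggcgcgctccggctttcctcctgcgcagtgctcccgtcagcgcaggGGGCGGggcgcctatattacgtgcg
SRSF3, chr6:36594212-36594352, plus strand: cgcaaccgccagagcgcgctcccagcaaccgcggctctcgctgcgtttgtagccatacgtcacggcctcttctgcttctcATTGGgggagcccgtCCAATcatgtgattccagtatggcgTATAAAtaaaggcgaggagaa
HNRNPF, chr10:43408883-43409007, minus strand: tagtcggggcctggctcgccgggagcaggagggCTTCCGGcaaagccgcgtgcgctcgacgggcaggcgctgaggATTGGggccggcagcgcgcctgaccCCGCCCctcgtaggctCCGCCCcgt
SRSF6 holds 2 GC boxes and HNRNPU 3, and neither stretch shown holds a CCAAT box. In the 250 bases searched, however, HNRNPU does have a CCAAT box, outside the stretch shown, and SRSF6 does not. Of the other members lower under all alternatives, HNRNPA0 has a CCAAT box there, and SRSF5, SRSF7 and TRA2B do not. SRSF3 holds 2 CCAAT boxes and TATAAA, and HNRNPF holds a CCAAT box, an ETS site and 2 GC boxes.

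The families were also compared with other genes in their annotated transcripts. The median number of these was 10 in the SR family and 11 in the hnRNP family, against 8 in tested protein-coding genes. Genes with more transcripts have more room for one of any class, and the shares below were not adjusted for that. All 14 SR genes have at least 1 annotated transcript of the nonsense-mediated decay class, as do 12 of 19 hnRNP genes, against 43.4% of 10338 tested protein-coding genes. SRSF7 has 6 such transcripts and HNRNPU 9, while SRSF6, SRSF5 and TRA2B have 1 each and HNRNPA0 has 0. Transcripts with a retained intron are annotated for 11 SR (78.6%) and 13 hnRNP (68.4%) genes, against 58.3%. FPKM per gene sums over all of these, so a shift between productive and decay transcripts was not measured.

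Shared sequence limits some of the values. Exonic bases overlap another annotated gene in 15 members, with the largest shares in SRSF1 (60.7%), SRSF9 (46.2%), HNRNPUL2 (44.1%) and SRSF2 (36.7%). SRSF9 overlaps GATC and SRSF2 overlaps MFSD11 on the opposite strand, and the sources used here do not say whether strand was used, without which such reads cannot be told apart. HNRNPUL2 shares its bases with the read-through gene HNRNPUL2-BSCL2. GATC stood at 10.2 ± 1.20 FPKM (control) and 11.4 ± 0.526 FPKM (PAL) and MFSD11 at 4.37 ± 0.193 FPKM (control) and 4.19 ± 0.0577 FPKM (PAL). HNRNPU overlaps COX20 over 15.6% of its exonic bases, and COX20 stood at 12.6 ± 0.150 FPKM (control) and 12.1 ± 0.0854 FPKM (PAL). AC015813.2, which overlaps SRSF1 on the same strand, was listed at 0 in all 6 libraries. Of all 50-base words in annotated transcripts, more than 10% recur in transcripts of another gene for 6 members, among them HNRNPA1 (22.8%) and HNRNPA3 (16.5%), whose values are uncertain for that reason. SRSF7, TRA2A and HNRNPA0 share 0% of theirs, TRA2B 0.10%, HNRNPU 0.23%, SRSF5 0.56% and SRSF6 5.97%.

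Other genes of the pathway were counted in 5 lists, in the same fit. Plain totals shift every gene of a library by 1 factor, so counts under that scaling are read against all genes. The share of all genes called in either direction, 25.9%, was 16.1%, 15.1% and 19.6% when PAL replicates 1, 2 or 3 were left out, 16.7% when control replicate 2 was, and 18.5% when both libraries numbered 3 were. Leaving out control replicate 1 gave 2326 calls of 12258 genes. Among SR-related splicing coactivators, 11 of 31 tested (35.5%) were lower and 3 (9.68%) higher, against 14.5% and 11.4% of all genes, with a median log2 fold change of -0.077. Under plain read totals 7 (22.6%) were lower and 5 (16.1%) higher, against 9.22% and 25.3% of all genes, and the median was -0.0051. CCNL1, a cyclin of nuclear speckles, went from 12.2 ± 0.787 to 5.56 ± 0.301 FPKM (limma adjusted p = 6.64e-05), while its relative CCNL2 rose from 12.3 ± 0.310 to 15.5 ± 0.350 FPKM (limma adjusted p = 0.00144). RSRC2 and SCAF8, a pair of SR-related proteins, fell by 0.45 and 0.35, and SCAF1 and LUC7L3 rose by 0.19 and 0.16. The call of LUC7L3 was lost with the replicate block, without PAL replicate 2 and without control replicate 2 (range 0.00214 to 0.0635 over 17 alternatives).

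Of the SR protein kinases and importers, 3 of 10 tested (30%) were lower and 1 (10%) higher, against 14.5% and 11.4% of all genes, with a median log2 fold change of -0.092. Under plain read totals 2 (20%) were lower and 1 (10%) higher, against 9.22% and 25.3% of all genes, and the median was -0.021. CLK1, which phosphorylates RS domains in the nucleus, went from 11.3 ± 1.17 to 3.97 ± 0.555 FPKM (limma adjusted p = 2.26e-04), whereas CLK2 went up from 7.43 ± 0.635 to 13.7 ± 0.613 FPKM. TNPO3, the importer of SR proteins, went from 32.5 ± 0.911 to 27.7 ± 0.171 FPKM, a fall of 0.22 (limma adjusted p = 0.00278, range 1.17e-04 to 0.0187 over 17 alternatives). SRPK2, a kinase of SR proteins in the cytoplasm, fell by 0.14, a call lost under 12 of 17 alternatives (limma adjusted p = 0.0498, range 0.0272 to 0.288).

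In the list of other hnRNP-type and repressor proteins, 6 of 39 tested (15.4%) were lower and 5 (12.8%) higher, against 14.5% and 11.4% of all genes, with a median log2 fold change of -0.023. Under plain read totals 0 (0%) were lower and 11 (28.2%) higher, against 9.22% and 25.3% of all genes, and the median was 0.052. IGF2BP3, a binder of mRNA, SFPQ, a paraspeckle protein, and RBM3, a cold-inducible protein, fell by 0.17, 0.12 and 0.16, calls lost as TPM and by plain read totals, and for SFPQ and RBM3 after quantile normalization too. The list's count of 11 was 5 without each of PAL replicates 1 and 2 and control replicate 2, and 6 without control replicate 1. CIRBP, another cold-inducible protein, rose by 0.19, a call lost under 7 of 17 alternatives (range 0.00896 to 0.133), and CELF1 and IGF2BP1 by 0.17 and 0.17. The call of CELF1 was lost without PAL replicate 1, and that of IGF2BP1 without control replicate 2 and without both libraries numbered 3 (ranges 0.00112 to 0.0508 and 0.00187 to 0.0693).

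Of core spliceosome genes, 21 of 60 tested (35%) were lower and 4 (6.67%) higher, against 14.5% and 11.4% of all genes, with a median log2 fold change of -0.035. Under plain read totals 8 (13.3%) were lower and 20 (33.3%) higher, against 9.22% and 25.3% of all genes, and the median was 0.045. SNRNP200, the helicase that unwinds the U4 and U6 RNAs, fell by 0.23, BUD31 by 0.24 and CDC40 by 0.29, while SF3A2, SNRPF and SNRPC rose by 0.18, 0.13 and 0.11. The list's count of 25 was 14 without PAL replicate 1 and 12 without PAL replicate 2. The calls of SNRPC, SNRPF and CDC40 were lost under 8 of 17, 3 of 17 and 2 of 16 alternatives. In nonsense-mediated decay and the exon junction complex, 6 of 15 tested (40%) were lower and 1 (6.67%) higher, against 14.5% and 11.4% of all genes, with a median log2 fold change of -0.054. Under plain read totals 4 (26.7%) were lower and 2 (13.3%) higher, against 9.22% and 25.3% of all genes, and the median was 0.026. EIF4A3, the RNA-clamping core of that complex, went from 45.8 ± 0.626 to 34.6 ± 0.823 FPKM (limma adjusted p = 1.70e-04, range 7.16e-08 to 0.00301). UPF3B, which links the complex to decay, fell by 0.35 and SMG8 by 0.29, and SMG9 rose by 0.18, a call lost under 8 of 17 alternatives (range 0.00771 to 0.113). The count of this list was 4 without each of the PAL replicates in turn and 4 without both libraries numbered 3.

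**Figure D4:**
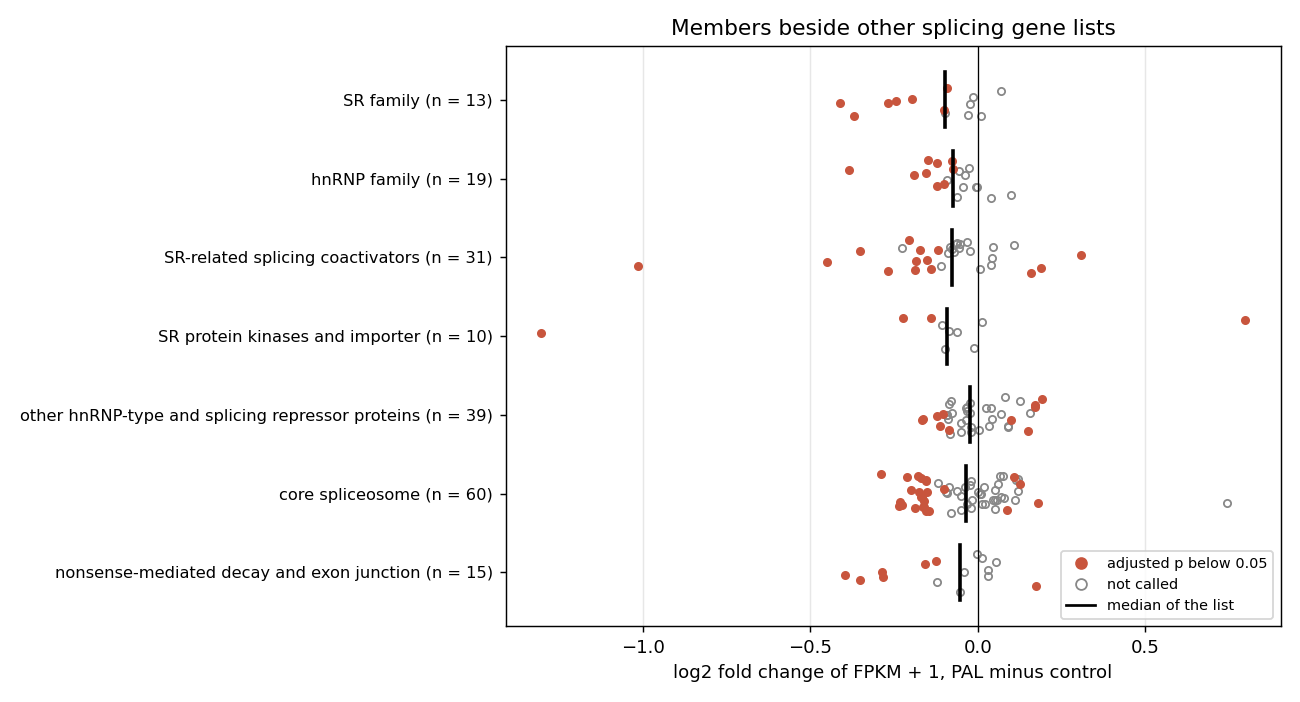
Log2 fold change of FPKM + 1, PAL minus control, of every tested gene in the SR and hnRNP families and 5 other splicing lists, filled red where the adjusted p in limma was below 0.05, with the list median as a black bar. Under the deposited scaling drawn here the list medians run from -0.10 in the SR family to -0.023 in the other hnRNP-type proteins (by plain read totals the median is above 0 in the hnRNP family and the last 3 lists), while CLK1 and CCNL1 lie far to the left, CLK2 to the right, and U2AF1, uncalled and spread between libraries, is the open circle at the right.

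SR genes with similar densities of arginine-serine codon pairs had different fold changes. SRSF2, SRSF4, SRSF7 and SRSF6 all had between 22.1 and 23.5 pairs per 100 codons, and their log2 fold changes were -0.10, -0.013, -0.24 and -0.41. SRSF9, at 4.07, was the SR member with the highest fold change. The next lowest densities of tested SR genes, 8.26 in SRSF11 and 11.9 in SRSF1, went with -0.022 and 0.011. A relation of density to fold change over all SR genes was not tested. The genes share the same 6 libraries and are not independent points.

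**Figure D5:**
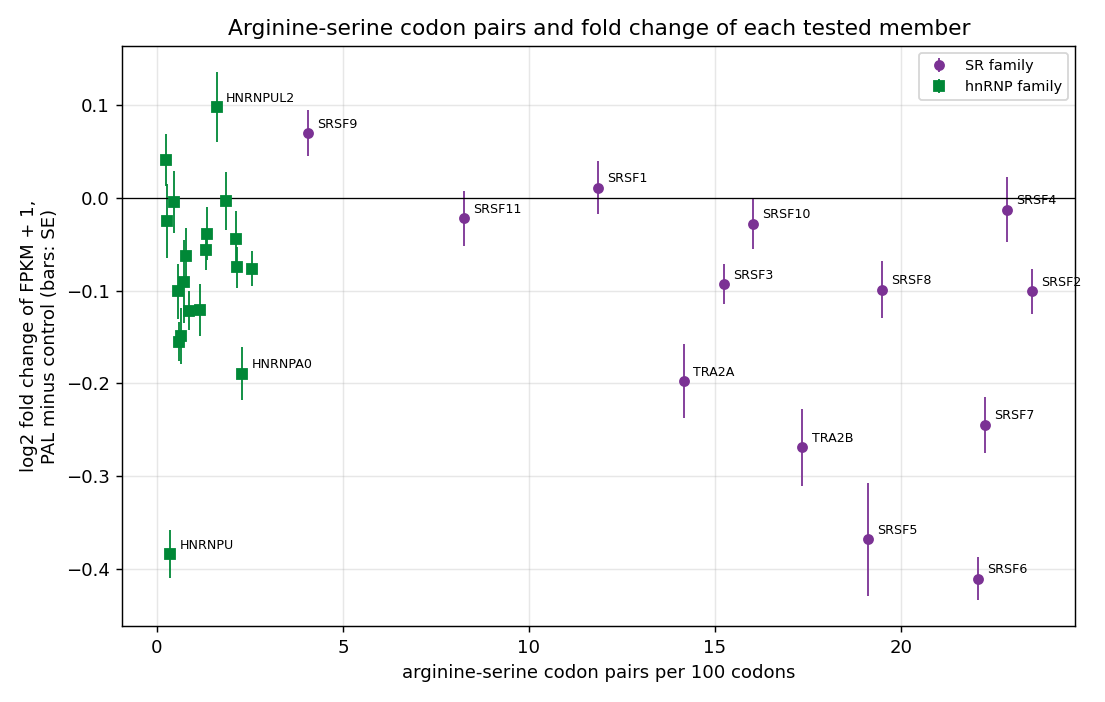
Arginine-serine codon pairs per 100 codons of the longest coding sequence against the log2 fold change of FPKM + 1, PAL minus control, with bars for SE, for the 32 tested members. The hnRNP genes lie at or below 2.55 pairs with HNRNPU far below the rest, and SR genes above 20 pairs span fold changes from -0.41 for SRSF6 to -0.013 for SRSF4.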

How the data were processed

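Poly-A enriched RNA of 6 libraries was measured, and groups and replicate numbers come from the sample titles. The deposited table gives FPKM for 58735 genes in each library, and 0 of its value columns were left unmapped. The genome build is hg38, per the submitters' processing notes. The sources used here do not name an aligner or counting tool, nor say whether strand was used. All 58735 genes have the start, end and exon-union length of GENCODE release 29. FPKM times length gave whole reads within 0.01 for 100% of values above 0.

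Genes with at least 1 FPKM in at least 3 libraries (12258) were tested with limma 3.58.1 in R 4.3.3 on log2(FPKM + 1), with a variance trend, two-sided, Benjamini-Hochberg adjustment over all genes and a threshold of 0.05. This scale understates changes of low genes. Tested members had at least 845 reads per library, a counting error of at most 3.44%, which leaves out any error from PCR duplicates. In simulated PAL and control reads, 0% of genes changed 1.1-fold, 16.0% at 1.2-fold and 83.7% at 1.5-fold were called, and 7.84% of calls were unchanged genes, over 12219 genes. Only 48 to 50 genes were changed at each of these folds, while 3179 genes were called in the data. The adjusted threshold was therefore stricter in simulation, and these shares do not carry over to the data. Every pair of libraries within a group differed by more than sampling noise, with a chi-square of 1.97 to 3.99 times its degrees of freedom.

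Members and lists were chosen with earlier results of these data known. Named genes are all 33 members, and per other list up to 3 rises and 3 falls with the largest change. Alternatives covered pseudocount, filter, scaling (TPM, quantile, plain read totals), variance model, replicate block, voom on recovered reads and each library left out. Voom kept the library sizes behind the deposited FPKM. Leaving out both libraries numbered 3 was added after seeing the data.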

Additional observations from a re-analysis of the deposited data

How the results depend on the processing

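The count of 7 SR members called was 4 with the replicate block and 4 to 6 with libraries left out, all lower, and 5 as TPM (1 higher), 6 after quantile normalization (1 higher) and 6 by plain read totals (2 higher). The count of 9 hnRNP members, all lower, was 5 as TPM (3 lower, 2 higher), 4 after quantile normalization (2 lower, 2 higher), 5 by plain read totals (3 lower, 2 higher), 5 without the variance trend, 5 with the replicate block and 4 to 7 with libraries left out. Over all genes, 3179 calls became 2103 with no filter, 1855 without PAL replicate 2, 1972 without PAL replicate 1, 2051 without control replicate 2 and at most 2789 with a library left out, and 2131 with the replicate block. The replicate numbers are not stated to mark a shared batch, so they were not taken as pairs. Deviations of same-numbered libraries from their group means had correlations of -0.024, 0.027 and -0.045. With 3 libraries per group these values cannot decide whether the libraries were paired. The ratio of the SR sum was 0.953 as TPM and 0.962 by plain read totals, and 0.901 to 0.913 with libraries left out. That of the hnRNP sum was 0.987 and 0.997, and 0.936 to 0.943. The sign of the log2 fold change turned in 45 of 544 values of single members and in 0 of 560 of the other named splicing and heat shock genes. Those other splicing genes were named for passing with the largest changes of their lists, and all heat shock genes passed. Members include uncalled genes with changes near 0, so the counts are not comparable. As TPM it turned to 0.055 (SRSF4), 0.040 (SRSF10), 0.046 (SRSF11), 0.067 (HNRNPA3), 0.015 (HNRNPC), 0.026 (HNRNPDL), 0.065 (HNRNPH2), 0.031 (HNRNPL), 0.046 (HNRNPM) and 0.0069 (HNRNPR). After quantile normalization it turned to 0.0061 (SRSF2), 0.020 (SRSF4), 0.021 (SRSF10), 0.027 (SRSF11), 0.057 (HNRNPA1), 0.024 (HNRNPA2B1), 0.068 (HNRNPA3), 0.047 (HNRNPC), 0.021 (HNRNPDL), 0.032 (HNRNPH2), 0.0042 (HNRNPL), 0.061 (HNRNPM) and 0.010 (HNRNPR). By plain read totals it turned to 0.068 (SRSF4), 0.054 (SRSF10), 0.060 (SRSF11), 0.011 (HNRNPA1), 0.0089 (HNRNPA2B1), 0.081 (HNRNPA3), 0.029 (HNRNPC), 0.040 (HNRNPDL), 0.079 (HNRNPH2), 0.046 (HNRNPL), 0.060 (HNRNPM) and 0.021 (HNRNPR). With single libraries left out, the range was -0.0084 to 0.026 for SRSF1, -0.037 to 0.013 for SRSF4, -0.027 to 0.025 for HNRNPA3, -0.027 to 0.016 for HNRNPH2 and -0.057 to 0.0075 for HNRNPM. Without both libraries numbered 3 it turned to -0.020 (SRSF1) and 0.032 (HNRNPH2). TPM and plain totals shift every gene of a library by 1 factor, the cause of other losses was not tested, and among all calls the rises were 1399 of 3179, against 2714 of 3880 as TPM, 2069 of 3497 after quantile normalization and 3097 of 4227 by plain totals. Depth limits SRSF12, and changes near 1.1-fold were not recovered in simulation. That simulation changed few genes, so its adjusted threshold was stricter than in the data, where some members with smaller changes were called.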

Other observations

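By their names, 125 rows are pseudogene copies of a member, 2 are read-through genes and 0 are antisense genes. The annotation gives a pseudogene class for 124 of the 125 and calls HNRNPA1P48 protein-coding. Of these 127 rows, 44 had reads and 10 were tested, all of hnRNP genes. HNRNPA1P7 had the highest level, at 41.6 ± 3.75 FPKM (control) and 40.8 ± 0.567 FPKM (PAL), followed by HNRNPCP2 with 27.7 ± 2.94 FPKM (control) and 25.3 ± 1.28 FPKM (PAL), then HNRNPA1P48 at 16.3 ± 2.54 FPKM (control) and 18.7 ± 2.13 FPKM (PAL). These 3 differed by -0.023, -0.12 and 0.19 on the log2 scale and were not called. The 1 row called was HNRNPA1P16, named after its values were seen, which went from 1.46 ± 0.172 to 2.28 ± 0.360 FPKM (limma adjusted p = 0.0227, range 0.0112 to 0.0790 over 16 alternatives, lost under 5 of them) on 19 to 43 reads per library. Reads of near-identical copies cannot be assigned with certainty, so these levels may hold reads of the parent genes.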
